A study of Mus musculus with 12 samples.

Results

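Bone marrow-derived macrophages labelled CKO were compared with macrophages labelled WT after 24 h of interferon-γ (IFN-γ, 100 U/mL), using 4 of the 12 mouse RNA-seq libraries of the series. The members were chosen by label alone: the 2 libraries of CKO with IFN-γ and the 2 libraries of WT with IFN-γ. The other 8 libraries hold the same genotypes without cytokine and after IL-4 (20 ng/mL, 24 h), 2 libraries per group, and were used for the shared estimate of spread and to ask where the IFN-γ comparison differed. The libraries were made by an exome-capture RNA protocol, and values are CPM, counts scaled to equal effective library sizes. The labels give no strain, age, sex, promoter driving a recombinase, number of animals or pooling, and do not spell out CKO. The series title names interferon regulatory factor 8 (IRF8). All 12 libraries share the source, marrow cells grown into macrophages, so that the WT group is a cultured control and not a resident tissue macrophage. Nothing says that the 2 libraries of a group came from separate mice. The p-values weigh a difference against the spread between libraries of a group, pooled over all 6 groups, and that spread may be technical.

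IFN-γ binds a paired receptor, activates JAK kinases and STAT proteins, and turns on genes that carry GAS elements. IRF9 acts with STAT partners on ISRE elements, which other IRF proteins also bind. In macrophages this raises antigen presentation, GTPases that attack intracellular microbes, antiviral proteins and chemokines that attract T cells. IRF8 is a transcription factor of this family that pairs with PU.1 at ETS-IRF composite elements, is itself raised by IFN-γ, and directs monocyte and dendritic cell development while restraining the neutrophil lineage.

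The 4 libraries held 24668799 and 28826018 counts for WT and 28466599 and 28517254 for CKO, and 16292 of 48440 genes were tested. Pearson's r of log CPM was 0.9884 between the WT libraries, 0.9945 between the CKO libraries and 0.9731 to 0.9757 across genotypes, over genes that share library and depth. Mitochondrial genes took 2.12% to 2.63% of counts. Gm42418, a gene model whose counts can follow ribosomal RNA, took 0.753% of WT library 1 and 0.0717% to 0.105% of the other 3, a difference whose part in any result was not tested. Irf8 (chr8:120736358-120756694 in GRCm38) was the first gene examined because the series title names it. It measured 513 and 502 CPM in the WT libraries and 1200 and 1170 CPM in the CKO libraries, and did not fall: the log2 fold change of CKO over WT was 1.23 ± 0.11 (SE; edgeR adjusted p 2.81e-05). Both CKO libraries lay above both WT libraries. A count over the whole gene includes exons outside any deleted stretch, so it checks neither the label nor the allele, and CKO and WT are used below only as the names the labels give. Lyz2 (chr10:117277331-117282321) encodes lysozyme M, a macrophage enzyme whose locus carries the recombinase in a widely used myeloid deleter strain. It measured 6040 and 5840 CPM in the WT libraries and 12.6 and 15.7 CPM in the CKO libraries, with a log2 fold change of -8.71 ± 0.17 and an edgeR adjusted p of 1.06e-10. The groups were far apart, and the log2 fold change was -8.73 in the untreated libraries and -8.85 after IL-4. The neighbouring copy Lyz1 measured 168 and 150 CPM in the WT libraries and 15.1 and 8.55 CPM in the CKO libraries. Transcripts of both genes share 195 of the 1214 words of 50 bases in Lyz1, or 16.1%, so how reads were split between them is uncertain. The 5 nearest other well-expressed genes with a symbol other than a clone name, out to 326562 bases from Lyz2, did not pass the test.

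After IFN-γ, 2995 genes, or 18.4% of those tested, passed an edgeR adjusted p of 0.05. Of these, 1690 (10.4%) were higher in CKO and 1305 (8.01%) were lower. A fold of at least 2 was reached by 610 higher genes (3.74%) and 422 lower genes (2.59%), and a fold of at least 4 by 192 (1.18%) and 127 (0.78%). Both CKO libraries lay above both WT libraries in 32.7% of tested genes and below both in 30.3%. Lack of overlap is thus common, and where it is given below for genes that passed it adds little to the call. The median log2 fold change was 0.0173 over all tested genes, and the median size of the change was 0.759 among those that passed. These counts depend on single libraries. With WT library 1, WT library 2, CKO library 1 or CKO library 2 left out in turn, 1159, 1109, 721 and 975 genes were higher and 731, 766, 488 and 521 were lower. A total of 652 of the higher genes (38.6%) and 375 of the lower genes (28.7%) passed in all 4 of those fits. Counts with 1 library left out are given in that same order from here on, wherever they move a list by more than 1.5 times, and values are CPM for WT library 1 and 2, then CKO library 1 and 2. Each list count below is to be read beside the 10.4% higher and 8.01% lower among all tested genes. A list with shares near these does not stand out from other genes, and no list was tested as a set. In bulk RNA, fewer cells of a type and less RNA per cell cannot be told apart.

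**Figure D1:**
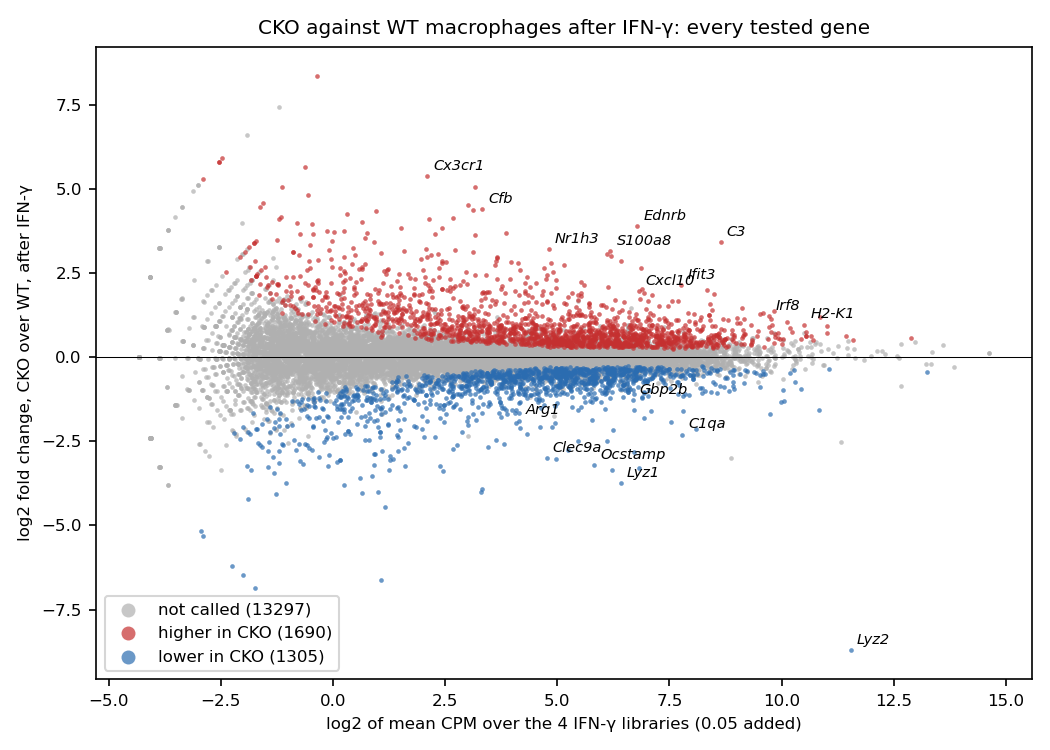
Each point is 1 of the 16292 tested genes, with the log2 of its mean CPM over the 4 IFN-γ libraries on the x axis (0.05 added) and its log2 fold change of CKO over WT on the y axis; 1690 higher genes are red, 1305 lower genes are blue and genes that did not pass are grey. Lyz2 lies alone near the bottom right at -8.71, while Ednrb and C3 lead the well-expressed genes above 0.

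Among well-expressed genes, the 15 largest increases in CKO were Ednrb, C3, Nr1h3, S100a8, Chil3, Ddx60, Lcn2, S100a9, Lipg, Fcrls, Abca9, Gngt2, Ly6i, Ms4a6b and Pilra. Ednrb (chr14:103814625-103844402), the endothelin B receptor, measured 12.9 and 14.6 CPM in the WT libraries and 207 and 206 CPM in the CKO libraries, a log2 rise of 3.90 ± 0.14 (edgeR adjusted p 2.62e-08). Each pair of libraries was tight beside the gap between genotypes. C3, the central complement component, measured 63.2 and 73.9 CPM in the WT libraries and 768 and 691 CPM in the CKO libraries, a log2 fold change of 3.41 ± 0.12 (edgeR adjusted p 2.39e-08). Nr1h3, which encodes the oxysterol receptor LXRα, measured 5.84 and 5.04 CPM in the WT libraries and 52.6 and 48.6 CPM in the CKO libraries and had a log2 fold change of 3.22 ± 0.14 (edgeR adjusted p 1.95e-07). For C3 and Nr1h3 too, every CKO library exceeded every WT library several times over. Ddx60, a helicase that aids viral RNA sensing, measured 15.2 and 17.4 CPM in the WT libraries and 135 and 127 CPM in the CKO libraries. Abca9, a lipid-transporter family member, measured 4.35 and 4.46 CPM in the WT libraries and 32.8 and 28.5 CPM in the CKO libraries, and Pilra, an inhibitory paired receptor, 6.5 and 7.88 against 48.1 and 42.1 CPM. Lipg, endothelial lipase, was uneven between the CKO libraries at 19.4 and 35.4 CPM, both above the WT value of 3.81 in each library. S100a8, S100a9, Lcn2 and Chil3 are also neutrophil genes and members of the late granule and cytosol marker list. The summed level of that list, which includes them, was 150 and 162 CPM in WT and 694 and 695 in CKO. The part of other cells in these increases was not tested. All 15 genes passed with any 1 of the 4 libraries left out.

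The 15 largest decreases were Lyz2, Lyz1, Tnik, Ptgs2, Ocstamp, Myh10, Clec9a, Ly86, Rps2-ps13, Igf2bp3, Upp1, Scd2, Tlr12, C1qa and Atp6v0d2. Tnik, a kinase that acts on the cytoskeleton and Wnt signalling, measured 138 and 134 CPM in the WT libraries and 16.8 and 9.74 CPM in the CKO libraries. The CKO libraries were uneven but both far under WT, with a log2 fold change of -3.35 ± 0.24 (edgeR adjusted p 5.82e-06). Myh10, a non-muscle myosin heavy chain, measured 55.3 and 56.6 CPM in the WT libraries and 7.34 and 6.47 CPM in the CKO libraries, a log2 fold change of -3.02 ± 0.15 (edgeR adjusted p 4.15e-07). Ocstamp (chr2:165393760-165400405), a membrane protein needed for macrophage and osteoclast fusion, measured 105 and 97.9 CPM in the WT libraries and 11.4 and 10.6 CPM in the CKO libraries and showed a log2 change of -3.21 ± 0.16 (edgeR adjusted p 4.97e-07). Clec9a (chr6:129408862-129424763), the dendritic cell receptor for actin exposed on dead cells, measured 43.7 and 52.7 CPM in the WT libraries and 6.47 and 5.5 CPM in the CKO libraries, a log2 fold change of -3.01 ± 0.21 (edgeR adjusted p 3.63e-06). In these 4 genes no CKO library came near a WT library. Ly86, which encodes MD-1, the partner of the TLR homologue RP105, measured 178 and 188 CPM in the WT libraries and 32.8 and 19.6 CPM in the CKO libraries. Upp1, uridine phosphorylase, measured 111 and 125 CPM in the WT libraries and 23.9 and 18 CPM in the CKO libraries, and Igf2bp3, an RNA-binding protein, 21.4 and 26.4 against 4.33 and 3.72 CPM. Rps2-ps13 is a pseudogene of a ribosomal protein gene, so its 64.2 and 67.8 against 9.52 and 10 CPM may hold reads of its parent. These genes, too, passed with any 1 library left out, although the change of Tlr12 ranged from -3.26 on the log2 scale without CKO library 1 to -1.95 without CKO library 2.

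**Figure D2:**
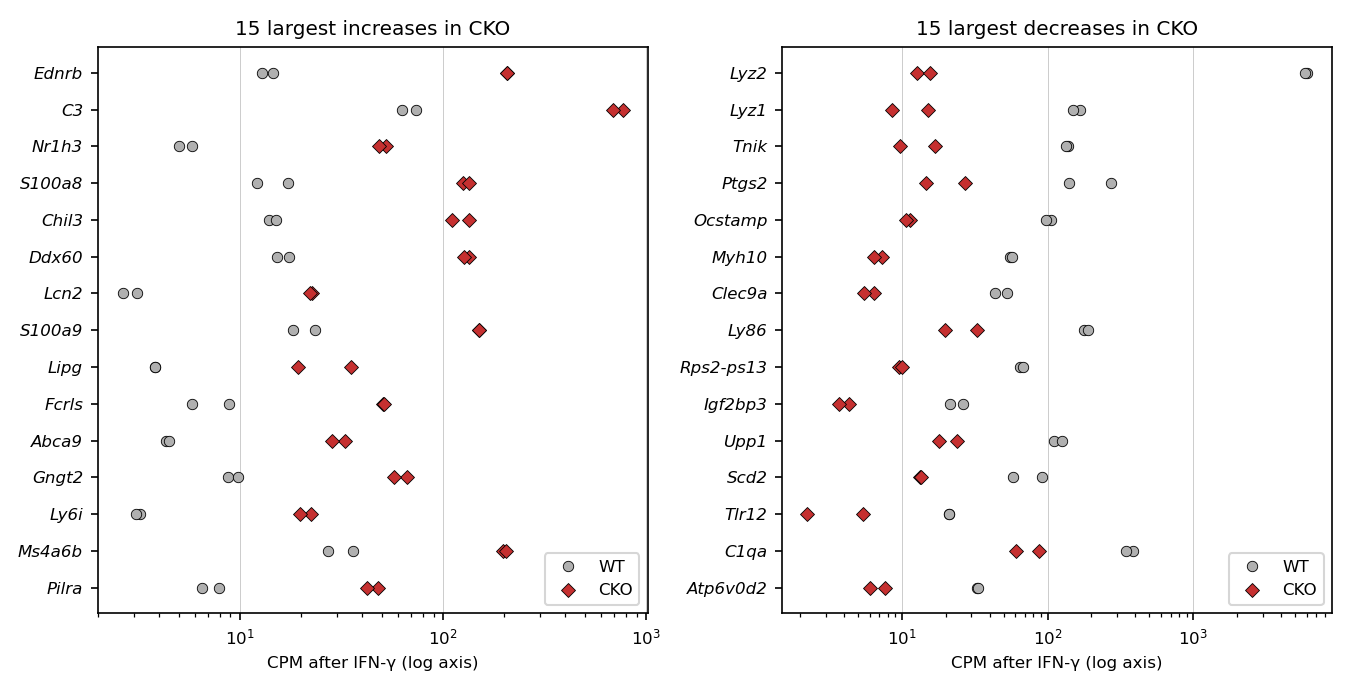
The left panel plots the 15 largest increases and the right panel the 15 largest decreases, with CPM after IFN-γ on a log axis; grey circles are the 2 WT libraries and red diamonds the 2 CKO libraries. The genes were chosen from those without overlap between genotypes, so its absence here is set by that choice. Lyz2 spans from 6040 and 5840 CPM in WT to 12.6 and 15.7 in CKO.

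Some genes of the IFN-γ pathway itself were higher in CKO. Of 20 receptor, kinase, STAT and regulator genes, 7 were higher and none lower, with a median log2 fold change of 0.30 against 0.0173 for all tested genes. With 1 library left out the higher count was 6, 7, 4 and 7. The ligand-binding receptor chain Ifngr1 measured 72.9 and 76.9 CPM in the WT libraries and 125 and 119 CPM in the CKO libraries, a log2 rise of 0.70 ± 0.14 (edgeR adjusted p 0.00436; 0.055 without CKO library 1). Its partner Ifngr2 did not pass at 77.4 and 80 against 87.3 and 84 CPM, nor did the kinases Jak1 (308 and 277 against 309 and 313) and Jak2 (94.1 and 93.8 against 118 and 114). Ptpn6, the phosphatase SHP-1 that limits the pathway, rose from 432 and 461 to 670 and 659 CPM, a log2 rise of 0.57 ± 0.094 (edgeR adjusted p 0.00152). Socs1, the feedback inhibitor, did not pass, and its values of 30.8 and 56.5 in WT and 57.8 and 42.5 CPM in CKO overlapped. In untreated cells 6 of the 20 genes were higher in CKO and none lower, with a median log2 fold change of 0.24.

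In the interferon regulatory factor family, 4 of 8 tested members were higher and none lower: Irf8, Irf7, Irf9 and Irf4, each with any 1 library left out as well. Irf7, which amplifies type I interferon, measured 56.7 and 68.2 CPM in the WT libraries and 203 and 193 CPM in the CKO libraries, a log2 rise of 1.67 ± 0.11 (edgeR adjusted p 3.63e-06). Irf9, the DNA-binding part of an interferon-activated STAT complex, measured 53 and 52.7 CPM in the WT libraries and 80.9 and 77.8 CPM in the CKO libraries, a smaller log2 rise of 0.58 ± 0.11 (edgeR adjusted p 0.00289). Irf4, a family member of dendritic cells and IL-4-treated macrophages, was low at 1.57 and 1.8 CPM in WT and 5.87 and 6.51 in CKO. Irf1, an early target of the pathway, did not pass, with 1020 and 1030 CPM in WT against 1200 and 1170 in CKO. Of all tested genes 10.4% were higher after IFN-γ. In untreated cells 4 of the 8 family members were higher as well, with the same median log2 fold change of 0.48. After IL-4 3 were higher, with a median of 0.44.

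Of 52 antiviral effector genes 36 were higher in CKO and 3 lower, with a median log2 fold change of 0.71, beside 10.4% higher and 8.01% lower among all tested genes. Without each library in turn 28, 34, 25 and 30 were higher, 25 of them in all 4 fits, and 2, 1, 2 and 1 were lower. The 150 bases before the start site are printed for 6 genes that rose: Ifit3, Ifit1, Isg15, Rsad2, Ddx60 and the GTPase Igtp. The same stretch is printed for Phf11a, which fell. These genes were chosen after their values were seen. The sequences are from RefSeq (GRCm38.p6), 5′ to 3′ in the direction of the gene, with the start site following the last base. Capitals mark matches, on either strand, to GAAA followed after any 2 bases by GAAA, of the ISRE kind, or to TTC followed after any 3 bases by GAA, of the GAS kind. Read from the other strand the ISRE letters are TTTC, 2 bases and TTTC.
Ifit3, plus strand, chr19:34583379-34583528: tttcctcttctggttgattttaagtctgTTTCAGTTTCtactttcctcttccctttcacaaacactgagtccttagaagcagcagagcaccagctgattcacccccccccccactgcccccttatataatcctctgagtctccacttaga
Ifit1, plus strand, chr19:34640739-34640888: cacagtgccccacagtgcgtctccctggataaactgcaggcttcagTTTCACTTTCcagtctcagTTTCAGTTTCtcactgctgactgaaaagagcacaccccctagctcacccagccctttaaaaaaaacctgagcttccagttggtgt
Isg15, minus strand, chr4:156200819-156200968: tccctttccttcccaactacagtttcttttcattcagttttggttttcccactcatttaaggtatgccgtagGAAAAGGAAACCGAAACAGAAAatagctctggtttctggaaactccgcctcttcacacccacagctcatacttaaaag
Rsad2, minus strand, chr12:26456453-26456602: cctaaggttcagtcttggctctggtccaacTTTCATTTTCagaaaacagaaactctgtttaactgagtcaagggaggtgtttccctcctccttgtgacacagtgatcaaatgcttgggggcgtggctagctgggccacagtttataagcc
Ddx60, plus strand, chr8:61927937-61928086: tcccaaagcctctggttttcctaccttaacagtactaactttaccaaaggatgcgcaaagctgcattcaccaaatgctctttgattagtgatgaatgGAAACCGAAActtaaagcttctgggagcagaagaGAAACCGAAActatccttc
Igtp, plus strand, chr11:58199406-58199555: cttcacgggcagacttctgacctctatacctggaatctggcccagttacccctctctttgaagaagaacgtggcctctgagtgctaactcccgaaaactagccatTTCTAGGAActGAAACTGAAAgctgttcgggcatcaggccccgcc
Phf11a, minus strand, chr14:59297523-59297672: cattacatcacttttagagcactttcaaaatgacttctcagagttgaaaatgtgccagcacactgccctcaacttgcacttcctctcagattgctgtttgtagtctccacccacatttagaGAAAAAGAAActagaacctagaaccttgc
Isg15 holds 3 overlapping matches in 1 run of capitals, Ifit1 and Ddx60 hold 2 each, and Igtp holds 1 match of each kind. Phf11a also holds a match, so the letters alone do not separate genes that rose from genes that fell. No promoter without a match is printed, whereas 22 of the 44 promoter windows matched for the antiviral list held the ISRE letters.

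Ifit3, which binds viral RNA together with Ifit1, measured 80.2 and 81.7 CPM in the WT libraries and 358 and 352 CPM in the CKO libraries, a log2 rise of 2.13 ± 0.20 (edgeR adjusted p 5.04e-05). Ifit1 measured 49.1 and 57.4 CPM in the WT libraries and 178 and 174 CPM in the CKO libraries, a log2 rise of 1.73 ± 0.17 (edgeR adjusted p 4.44e-05). Both pairs of CKO libraries agreed closely and lay 3 to 5 times above WT. The IFIT genes are close copies of each other, so the split of reads among Ifit1, Ifit1bl1, Ifit3 and Ifit3b is uncertain. Isg15, a ubiquitin-like modifier, measured 32.5 and 38.9 CPM in the WT libraries and 97.2 and 104 CPM in the CKO libraries, a log2 rise of 1.5 ± 0.12 (edgeR adjusted p 8.41e-06). Rsad2, which makes a chain-terminating nucleotide against viruses, measured 175 and 166 CPM in the WT libraries and 536 and 488 CPM in the CKO libraries, a log2 rise of 1.59 ± 0.23 (edgeR adjusted p 0.00084). Oasl2, of the oligoadenylate synthetase family, rose from 86.2 and 94.4 to 289 and 283 CPM, and Trim30b, a TRIM protein with close copies, from 10.6 and 10.6 to 50.7 and 53.2. In none of these genes did a WT library reach a CKO library. The 3 that fell were Phf11a (17.4 and 25.1 to 10.8 and 8.74 CPM), Phf11b (60.8 and 74.2 to 42.1 and 38.7) and Mx1, the GTPase against influenza virus. Mx1 measured 116 and 111 CPM in the WT libraries and 70 and 64.8 CPM in the CKO libraries, a log2 change of -0.75 ± 0.20 (edgeR adjusted p 0.024) that passed in none of the 4 fits with a library left out (adjusted p 0.103, 0.0759, 0.117 and 0.172). Phf11b lost its call when the second WT (0.0587) or second CKO library (0.0718) was absent.

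In the list for type I interferon sensing, 7 of 16 genes were higher and none lower, with 5, 4, 4 and 5 when 1 library was left out. Ddx58, which encodes the RNA sensor RIG-I, measured 44.2 and 42.2 CPM in the WT libraries and 135 and 135 CPM in the CKO libraries, a log2 rise of 1.65 ± 0.15 (edgeR adjusted p 2.59e-05). Ifih1, which encodes the RNA sensor MDA5, measured 111 and 102 CPM in the WT libraries and 191 and 189 CPM in the CKO libraries, a log2 rise of 0.83 ± 0.13 (edgeR adjusted p 0.00118). For both sensors the CKO libraries were nearly equal and above WT. Of the PYHIN genes, DNA-binding proteins clustered on chromosome 1, 8 of 9 tested were higher and none lower, and 5, 6, 4 and 6 with 1 library left out. Pydc3 measured 7.41 and 9 CPM in the WT libraries and 30.1 and 31.2 CPM in the CKO libraries and Pydc4 17 and 20 against 54.1 and 55.9 CPM, both in all 4 such fits. Aim2, the inflammasome sensor of the family, was the tested member that did not pass, at 47.6 and 51 against 49.6 and 52.8 CPM. PYHIN genes are near-identical in stretches, so single values are uncertain.

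A RefSeq promoter window, 250 bases before to 50 after the start, was matched by symbol for 9859 of the 16292 tested genes. A match to the ISRE letters on either strand stood in 101 of 1201 windows of genes higher in CKO, or 8.41% (95% Wilson interval 6.97% to 10.1%). It stood in 3.89% of windows of lower genes, 3.42% of those that did not pass, 4.07% of all tested and 3.44% of all 32851 windows. Among genes at least 2-fold higher the share was 12%, and in the antiviral list 22 of 44 matched windows, or 50%, held it; that list was assembled from known interferon targets. The GAS letters stood in 10.7% of higher, 6.23% of lower and 8.41% of all tested windows, beside 8.3% of all windows. GGAA followed after any 2 bases by GAAA, of the ETS-IRF kind, stood in 4.91% of higher, 2.45% of lower and 3.01% of tested windows, beside 2.72% of all windows. The ISRE and ETS-IRF letters can overlap at 1 site, and a match is a description of letters only.

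**Figure D3:**
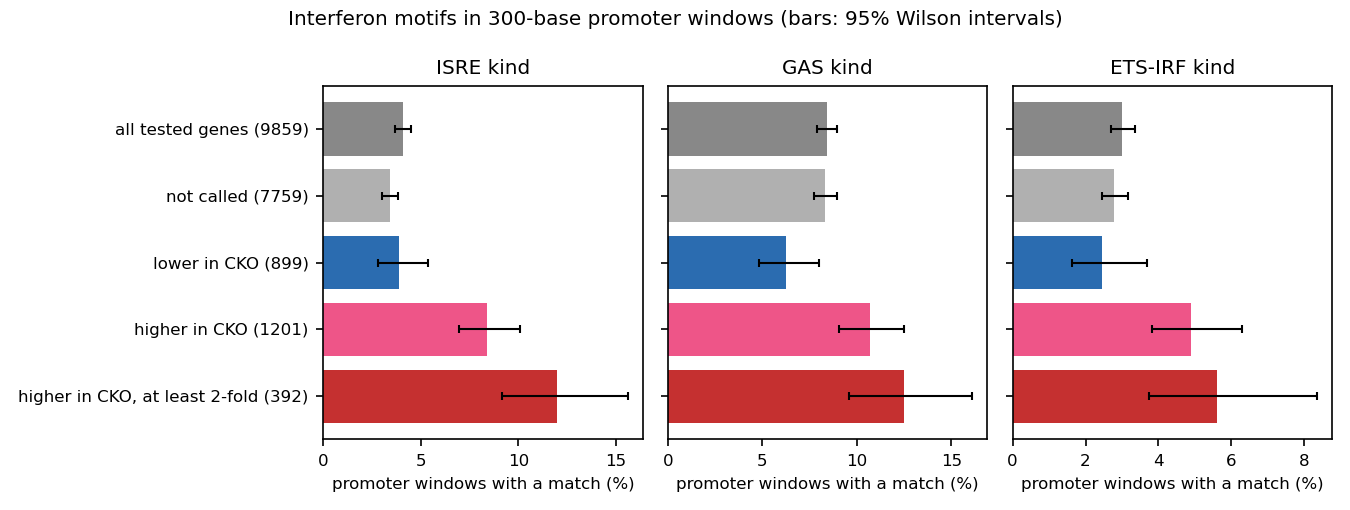
Bars give the percentage of 300-base promoter windows with a match on either strand for 3 motifs, in all tested genes, those that did not pass, those lower in CKO, those higher, and those at least 2-fold higher; whiskers are 95% Wilson intervals and the number of windows stands in brackets. The ISRE bars run from 3.42% in genes that did not pass to 12% in genes at least 2-fold higher.

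The interferon-induced GTPases, which coat and break the vacuoles of intracellular microbes, were split by family. Of 11 guanylate-binding proteins, 5 were higher and 1 lower, and 2 were higher in each fit with 1 library left out. Gbp8 measured 247 and 232 CPM in the WT libraries and 472 and 447 CPM in the CKO libraries, a log2 rise of 0.94 ± 0.16 (edgeR adjusted p 0.00216), and passed in all 4. Gbp11 measured 81.1 and 76.9 CPM in the WT libraries and 225 and 230 CPM in the CKO libraries, a log2 rise of 1.53 ± 0.23 (edgeR adjusted p 0.00164), but DESeq2 gave it an adjusted p of 0.16. Gbp2b went the other way at 125 and 168 CPM in the WT libraries and 76.4 and 45.2 CPM in the CKO libraries, a log2 change of -1.27 ± 0.24 (edgeR adjusted p 0.00599). Gbp2 did not pass, at 5520 and 5730 against 7550 and 7280 CPM, nor did Gbp4, at 1570 and 1470 against 1520 and 1580. In untreated cells 6 of the 11 were higher in CKO and none lower, with a median log2 fold change of 1.59 beside 0.58 after IFN-γ. Gbp genes are near-identical neighbours, so the division of reads between them is uncertain. Of 9 tested immunity-related GTPases, 6 were higher and none lower, and 4 in each fit with 1 library left out. Igtp, also called Irgm3, which guards host membranes, measured 419 and 472 CPM in the WT libraries and 1090 and 1110 CPM in the CKO libraries, a log2 rise of 1.30 ± 0.099 (edgeR adjusted p 6.84e-06). Irgm2 measured 258 and 267 CPM in the WT libraries and 585 and 561 CPM in the CKO libraries, a log2 rise of 1.13 ± 0.17 (edgeR adjusted p 0.001). Tgtp1 and Tgtp2, which are near-identical copies, were both higher. Tgtp1 measured 458 and 566 against 1300 and 1350 CPM, and Tgtp2 675 and 799 against 1490 and 1530. Irgm1 did not pass, at 1000 and 1040 against 1340 and 1370 CPM, nor did Iigp1, at 2110 and 2240 against 2340 and 2390.

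Antigen presentation genes were counted by class, and the classes were not tested against each other. Of 14 tested class I genes, heavy chains and B2m together, 12 were higher in CKO and none lower, with a median log2 fold change of 0.91 and 10, 12, 9 and 9 with 1 library left out. H2-K1, a classical class I chain, measured 937 and 1030 CPM in the WT libraries and 1950 and 1880 CPM in the CKO libraries, a log2 rise of 0.96 ± 0.13 (edgeR adjusted p 0.000465). H2-D1, the other classical chain, measured 1350 and 1490 CPM in the WT libraries and 2770 and 2620 CPM in the CKO libraries, a log2 rise of 0.93 ± 0.15 (edgeR adjusted p 0.00118). Their CKO libraries were close to 2 times the WT libraries, without overlap. H2-Q4 measured 116 and 105 CPM in the WT libraries and 209 and 204 CPM in the CKO libraries and H2-T22 114 and 122 against 214 and 210 CPM. B2m, the shared light chain, rose from 2020 and 2360 to 3410 and 3350 CPM but lost its call when WT library 1 (0.108) or either CKO library (0.122 and 0.0707) was absent. Class I genes are polymorphic near-copies, so the division of reads between them is uncertain. For peptide loading, 8 of 15 genes were higher (3, 5, 2 and 2 with 1 library left out) and 1, Pdia3, was lower (1, 1, 0 and 0). Tap2, a chain of the peptide transporter, rose from 173 and 189 to 298 and 302 CPM, a log2 rise of 0.73 ± 0.10 (edgeR adjusted p 0.00044). Psme2, a proteasome activator, rose from 246 and 287 to 387 and 393 CPM, a log2 rise of 0.55 ± 0.096 (edgeR adjusted p 0.00226). Tap1, the other chain, did not pass at 494 and 430 against 543 and 515 CPM. Of 12 class II genes, 3 were higher (H2-Ab1, H2-Eb1 and H2-Aa) and none lower, and 1, 2, 0 and 2 with 1 library left out. H2-Ab1 measured 191 and 236 CPM in the WT libraries and 390 and 346 CPM in the CKO libraries, a log2 rise of 0.78 ± 0.15 (edgeR adjusted p 0.00361; 0.0562 without CKO library 1). Ciita, the class II master regulator, did not pass at 193 and 172 against 160 and 153 CPM, nor did the invariant chain Cd74 at 1110 and 1050 against 1270 and 1140.

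Of 16 costimulatory and checkpoint genes 5 were lower, with 4, 2, 2 and 2 when 1 library was left out, and 1 (Sirpa) was higher, with 1, 0, 0 and 1. Cd40, the receptor for T cell help, measured 19.4 and 18.4 CPM in the WT libraries and 11 and 9.33 CPM in the CKO libraries, a log2 change of -0.89 ± 0.13 (edgeR adjusted p 0.000664). Pdcd1lg2, which encodes the checkpoint ligand PD-L2, was low, with 98 counts over both WT libraries and 12 over both CKO libraries (edgeR adjusted p 0.00175). Both passed in all 4 fits with a library left out. Cd274, which encodes PD-L1, did not pass, and its 867 and 737 in WT and 901 and 755 CPM in CKO overlapped. Cd86 did not pass either, at 64.6 and 72.6 against 50 and 45.2 CPM.

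**Figure D4:**
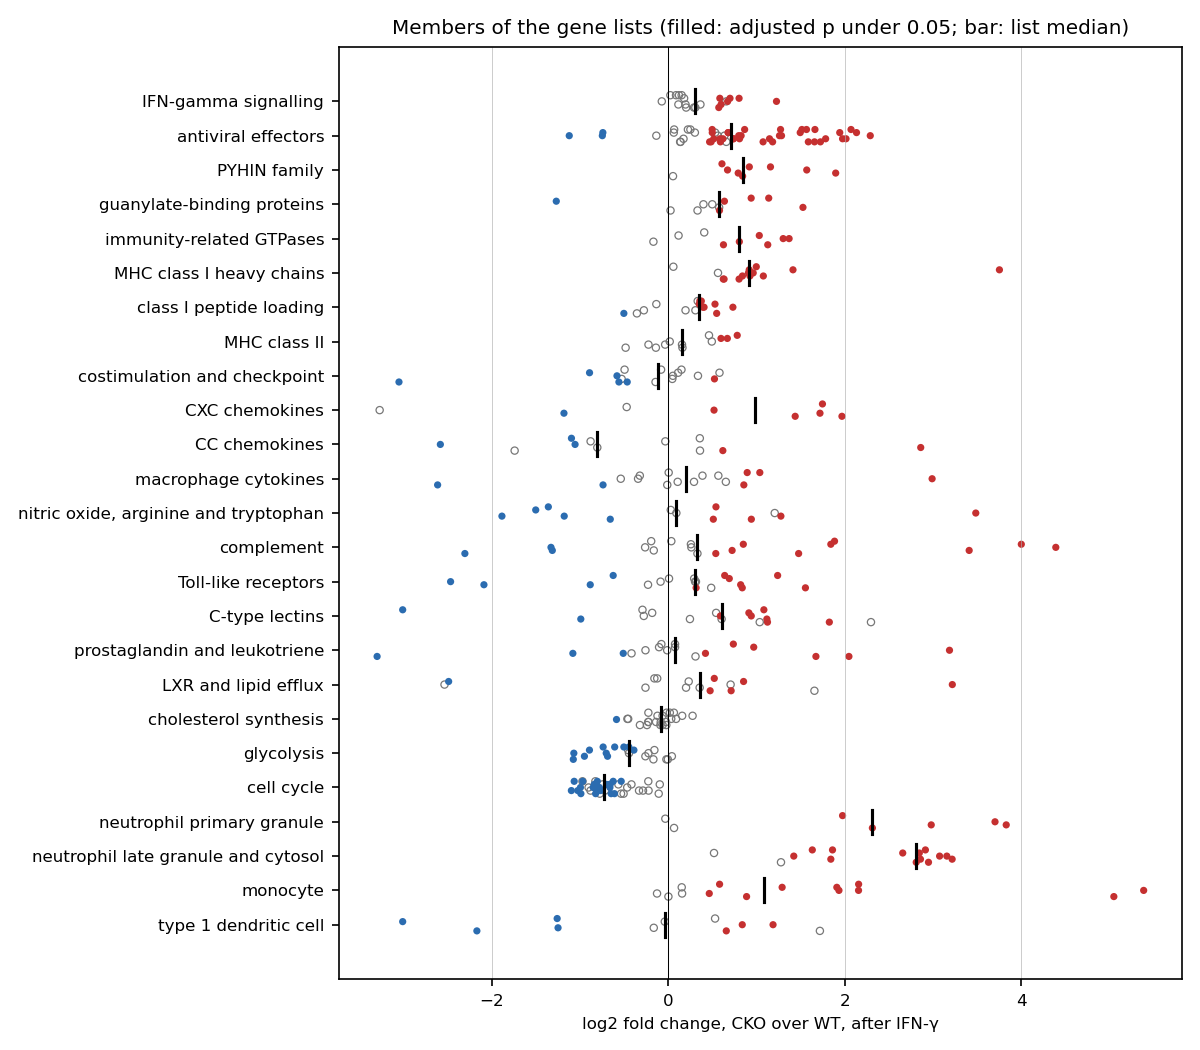
Each row is a gene list and each symbol a tested member, placed by its log2 fold change of CKO over WT after IFN-γ; filled symbols passed an adjusted p of 0.05 (red higher, blue lower), open symbols did not, and the black bar is the list's median. Antiviral, PYHIN and class I lists lie right of 0, cell cycle (median -0.73) and glycolysis lists (median -0.45) lie left, and both neutrophil lists lie farthest right.

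Effector metabolism was divided. In the list for nitric oxide, arginine and tryptophan, 5 of 13 genes were higher (1, 4, 2 and 2 with 1 library left out) and 5 lower (3, 2, 2 and 2). Nos2, the inducible nitric oxide synthase, measured 13.6 and 11 CPM in the WT libraries and 4.7 and 4.87 CPM in the CKO libraries, a log2 change of -1.36 ± 0.21 (edgeR adjusted p 0.00143). Slc7a2, which imports arginine for that enzyme, measured 59 and 52.4 CPM in the WT libraries and 25.8 and 23.4 CPM in the CKO libraries, a log2 change of -1.18 ± 0.13 (edgeR adjusted p 8.94e-05). Both fell without overlap and with any 1 library left out. Acod1, which makes itaconate, rose instead, from 422 and 447 to 816 and 855 CPM, a log2 rise of 0.94 ± 0.13 (edgeR adjusted p 0.000379). Arg1, arginase of IL-4-treated macrophages, measured 26.1 and 29.7 CPM in the WT libraries and 7.71 and 7.4 CPM in the CKO libraries with an edgeR adjusted p of 0.0281, but passed in none of the 4 fits with a library left out (0.0747, 0.095, 0.17 and 0.169). Of 9 genes of the superoxide-producing NADPH oxidase 3 were higher, 2 in each fit with a library left out: Ncf4 rose from 49.7 and 52.3 to 81.6 and 84.8 CPM and Ncf1 from 277 and 261 to 431 and 417, log2 rises of 0.70 ± 0.085 and 0.66 ± 0.097 (edgeR adjusted p 0.000186 and 0.000743). Ncf1 has pseudogene copies. Of 16 inflammasome and pyroptosis genes, 6 were higher and none lower, and 6, 3, 3 and 4 with 1 library left out. Casp1, which matures IL-1β and IL-18, measured 157 and 204 CPM in the WT libraries and 346 and 365 CPM in the CKO libraries, a log2 rise of 0.98 ± 0.14 (edgeR adjusted p 0.000522). Casp4, also known as caspase-11, the intracellular sensor of lipopolysaccharide, rose from 49 and 59.5 to 106 and 105 CPM. Ninj1, which ruptures the membrane of dying cells, rose from 109 and 110 to 239 and 233 CPM, a log2 rise of 1.11 ± 0.096 (edgeR adjusted p 1.75e-05). Nlrp3 did not pass, at 113 and 99.8 against 91 and 77.6 CPM.

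Among 16 tested macrophage cytokine and cytokine-binding genes, 4 were higher (Il18bp, Il18, Tnfsf10 and Il1b) and 2 lower (Tnfsf13b and Mif; 2, 2, 1 and 1 with 1 library left out). Tnfsf13b, which encodes the B cell survival factor BAFF, measured 10.9 and 12.3 CPM in the WT libraries and 2.07 and 1.71 CPM in the CKO libraries, a log2 change of -2.61 ± 0.29 (edgeR adjusted p 0.000104). Il18bp, the decoy that binds IL-18, measured 150 and 167 CPM in the WT libraries and 291 and 283 CPM in the CKO libraries, a log2 rise of 0.86 ± 0.17 (edgeR adjusted p 0.00407). Il18 itself rose from 8.53 and 11 to 20.9 and 19.4 CPM. In all 3 the genotypes did not overlap. Tnf was uneven between the WT libraries, 48.7 and 155 CPM, and did not pass beside 85 and 78 in CKO. Il6, Il12a, Il23a and Csf2 had no count in the 4 libraries, which allows up to 3 counts per library.

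Cxcl9 and Cxcl10, chemokines that IFN-γ is known for, were higher in CKO. Cxcl10 (chr5:92346638-92348889), a ligand of CXCR3 on T cells, measured 36.9 and 55.8 CPM in the WT libraries and 183 and 180 CPM in the CKO libraries, a log2 rise of 1.97 ± 0.20 (edgeR adjusted p 5.37e-05). Cxcl9, a second ligand of that receptor, measured 58.3 and 77.5 CPM in the WT libraries and 194 and 174 CPM in the CKO libraries, a log2 rise of 1.44 ± 0.16 (edgeR adjusted p 0.000477). The CKO libraries of both lay 2 to 5 times above WT without overlap. Over the CXC list 5 of 8 tested genes were higher and 1 lower, with 3, 2, 2 and 2 higher when 1 library was left out. The one that fell was Pf4, platelet factor 4, which macrophages also make, at 109 and 138 CPM in the WT libraries and 55.9 and 52.7 CPM in the CKO libraries. Among 11 tested CC chemokines 2 were higher and 3 lower (2, 2, 2 and 1, and 3, 2, 2 and 2, with 1 library left out). Ccl5, which attracts T cells, measured 2.11 and 3.81 CPM in the WT libraries and 24.7 and 18.8 CPM in the CKO libraries, a log2 rise of 2.86 ± 0.25 (edgeR adjusted p 1.88e-05). Ccl6 measured 502 and 516 CPM in the WT libraries and 252 and 238 CPM in the CKO libraries, a log2 change of -1.06 ± 0.17 (edgeR adjusted p 0.00109). Ccl2, which recruits monocytes, was uneven at 262 and 432 in WT and 185 and 212 CPM in CKO and did not pass. Of 13 tested chemoattractant receptors 6 were higher and 1 lower, and 4, 5, 4 and 5 were higher with 1 library left out. Cx3cr1, the fractalkine receptor of patrolling monocytes, had 10 counts over both WT libraries and 441 over both CKO libraries, a log2 rise of 5.39 ± 0.32 (edgeR adjusted p 1.47e-06). Fpr1, the formyl peptide receptor, rose from 0.745 and 0.828 to 19.3 and 13.7 CPM, and Ccr1 fell from 323 and 343 to 155 and 153. Fpr1 and Cx3cr1 are also genes of neutrophils or monocytes, and Cx3cr1 is itself in the monocyte marker list. Members of the neutrophil and monocyte lists that passed were all higher in CKO, and the part of other cells was not tested.

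Complement genes moved in both directions. All 3 chains of C1q, the recognition unit of the classical pathway, were lower: C1qa at 386 and 345 CPM in the WT libraries and 87.1 and 60.8 CPM in the CKO libraries, C1qb at 1410 and 1640 against 675 and 553, and C1qc at 1330 and 1560 against 636 and 513. Their log2 changes were -2.31 ± 0.29, -1.31 ± 0.22 and -1.33 ± 0.18 (edgeR adjusted p 0.00054, 0.00229 and 0.000487), and all 3 passed with any 1 library left out. Of the 19 genes tested 9 were higher, among them C3, given above. C4b, which continues the classical pathway, measured 20.6 and 17.8 CPM in the WT libraries and 70.3 and 67.4 CPM in the CKO libraries, a log2 rise of 1.84 ± 0.23 (edgeR adjusted p 0.000313). C4b has a near-identical neighbour that can share its reads. Cfb, factor B of the alternative pathway, measured 0.787 and 1.01 CPM in the WT libraries and 22.1 and 16 CPM in the CKO libraries, a log2 rise of 4.39 ± 0.38 by edgeR (adjusted p 7.15e-05), whereas DESeq2 gave an adjusted p of 0.0536. C1ra, a protease of C1, rose from 14 and 16.8 to 28.5 and 27.2 CPM. Itgam, a chain of complement receptor 3, rose from 131 and 148 to 228 and 233. No Fc receptor gene of 6 was higher and 2 were lower (1, 1, 0 and 0 with 1 library left out). Fcgr1 measured 360 and 422 CPM in the WT libraries and 292 and 275 CPM in the CKO libraries, with an edgeR adjusted p of 0.0202 that became 0.139 when WT library 2 was absent, and 0.0788 or 0.153 when the first or second CKO library was.

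Of 18 genes of the Toll-like receptor system, 7 were higher and 4 lower, with 5, 7, 4 and 5 higher and 2, 3, 2 and 2 lower when 1 library was left out. Higher genes included the surface receptor Tlr2 for lipoproteins, at 22.8 and 23.7 CPM in the WT libraries and 58.8 and 51.1 CPM in the CKO libraries, a log2 rise of 1.24 ± 0.12 (edgeR adjusted p 5.34e-05). Cd14, the co-receptor for lipopolysaccharide, measured 14.3 and 16 CPM in the WT libraries and 45.8 and 43.2 CPM in the CKO libraries, a log2 rise of 1.55 ± 0.12 (edgeR adjusted p 9.15e-06). Tlr3, the receptor for double-stranded RNA, measured 24.7 and 23.5 against 42.9 and 43.2 CPM and Tlr13, for bacterial ribosomal RNA, 446 and 441 against 723 and 710. Lower genes included Tlr9, the endosomal DNA receptor, at 48.2 and 30.6 CPM in the WT libraries and 11 and 7.51 CPM in the CKO libraries, a log2 change of -2.09 ± 0.26 (edgeR adjusted p 0.000305). Tlr12, which with Tlr11 recognises profilin, measured 21.1 and 21 CPM in the WT libraries and 5.38 and 2.23 CPM in the CKO libraries. Tlr4, the lipopolysaccharide receptor, did not pass at 262 and 305 against 242 and 241 CPM. In neither direction did the named genes that passed show overlap. Of 17 tested C-type lectins 7 were higher and 2 lower, with 4, 6, 4 and 5 higher when 1 library was left out. Clec4e, also called Mincle, a receptor for mycobacterial glycolipid, measured 17.7 and 22.9 CPM in the WT libraries and 72.6 and 71.7 CPM in the CKO libraries, a log2 rise of 1.83 ± 0.23 (edgeR adjusted p 0.000325). Its neighbour Clec4d rose from 140 and 173 to 330 and 334 CPM. Mrc1, the mannose receptor, fell from 432 and 400 to 207 and 212 CPM, a log2 change of -0.99 ± 0.091 (edgeR adjusted p 2.66e-05). Of 16 tested scavenger and apoptotic cell receptors 6 were higher (4, 5, 2 and 4 with 1 library left out) and 2 lower (1 in each). Marco, a scavenger receptor for bacteria, measured 234 and 357 CPM in the WT libraries and 858 and 770 CPM in the CKO libraries, a log2 rise of 1.46 ± 0.27 (edgeR adjusted p 0.004). Cd36, which takes up oxidised lipoprotein, measured 1250 and 1520 CPM in the WT libraries and 707 and 712 CPM in the CKO libraries, a log2 change of -0.96 ± 0.14 (edgeR adjusted p 0.000745). Cd5l, a secreted protein that binds lipids and is a target of LXR, rose from 8.37 and 8.53 to 51.7 and 40.7 CPM.

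Of 15 tested genes of LXR signalling and lipid efflux 5 were higher and 1 lower, beside 10.4% and 8.01% of all tested genes, and only Nr1h3 was higher in all 4 fits with a library left out (1, 3, 2 and 1 higher in turn). Abca1, the cholesterol exporter and a target of LXR, did not pass at 18.4 and 23.9 against 82 and 51.4 CPM (edgeR adjusted p 0.107), and Apoe did not at 775 and 601 against 1270 and 973. Scd2, a fatty acid desaturase, fell from 57.9 and 91.7 to 13.2 and 13.5 CPM. Of 23 tested genes of cholesterol synthesis 1 (Pmvk; 1, 0, 0 and 0 with 1 library left out) was lower and none higher, with a median of -0.08. In the untreated comparison 20 of the same 23 were lower, with a median of -0.75, and for 5 the difference between both comparisons passed its own test (0, 3, 0 and 0 with 1 library left out), in the direction of a smaller decrease after IFN-γ. Among lysosomal enzymes 4 of 27 were higher (2, 3, 2 and 1 with 1 library left out) and 3 lower (1, 2, 1 and 1). These shares are near the 10.4% higher and 8.01% lower of all tested genes, and the median of the lysosomal list was 0.01. Ctsc, cathepsin C, which activates serine proteases of granules, measured 2530 and 2920 CPM in the WT libraries and 1040 and 801 CPM in the CKO libraries, a log2 change of -1.56 ± 0.14 (edgeR adjusted p 1.97e-05). Ctsl, cathepsin L, rose from 767 and 784 to 1050 and 1270 CPM, with an adjusted p of 0.0507 without CKO library 2.

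Many genes of glycolysis and the cell cycle were lower in CKO after IFN-γ. The untreated comparison had 13 of the 20 glycolysis genes and 7 of the 40 cell cycle genes lower, with medians of -0.55 and -0.53. After IL-4 no gene of either list was lower, beside 1.55% of all tested genes. The medians there were -0.3 for glycolysis and 0.05 for the cell cycle. The counts that follow are those after IFN-γ. Of 20 glycolysis genes 11 were lower and none higher, with a median log2 fold change of -0.45 and 9, 7, 6 and 7 lower when 1 library was left out. Pfkp, a phosphofructokinase at the committed step, measured 392 and 414 CPM in the WT libraries and 189 and 195 CPM in the CKO libraries, a log2 change of -1.07 ± 0.11 (edgeR adjusted p 4.9e-05). Ldha, lactate dehydrogenase, measured 936 and 972 CPM in the WT libraries and 499 and 528 CPM in the CKO libraries, a log2 change of -0.89 ± 0.12 (edgeR adjusted p 0.000427). Slc16a3, the lactate exporter, fell from 118 and 129 to 63.1 and 64.6 CPM. Pkm did not pass at 3190 and 3190 against 3000 and 3290 CPM, nor did Gapdh at 989 and 1020 against 728 and 736. Hif1a, a transcription factor that drives glycolysis genes, fell from 261 and 332 to 203 and 204 CPM; its edgeR adjusted p was 0.0509 or 0.0533 when the second WT or second CKO library was absent. Of 40 cell cycle genes 22 were lower and none higher, with a median of -0.73. The count fell to 13, 7, 5 and 12 with 1 library left out, and 5 genes passed in every such fit. Ccnb1, the mitotic cyclin B1, measured 95.1 and 106 CPM in the WT libraries and 46.4 and 52.6 CPM in the CKO libraries, a log2 change of -1.02 ± 0.17 (edgeR adjusted p 0.00143). Cdc20, which triggers anaphase, measured 46.4 and 45.2 CPM in the WT libraries and 22 and 20.8 CPM in the CKO libraries, a log2 change of -1.10 ± 0.18 (edgeR adjusted p 0.00144). Kif20a, a kinesin of cell division, measured 96.1 and 88.9 against 46.4 and 48.1 CPM and Cenpf, of the kinetochore, 185 and 165 against 81.2 and 95.2. Mki67, the proliferation marker, measured 673 and 546 CPM in the WT libraries and 297 and 315 CPM in the CKO libraries, with an edgeR adjusted p of 0.00889 that became 0.07 when WT library 1 was absent, and 0.0705 or 0.0545 when the first or second CKO library was. In 38 of the 40 genes both CKO libraries were below both WT libraries, beside 30.3% of all tested genes.

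Lipid mediator genes differed by enzyme. Of 17 tested genes of prostaglandin and leukotriene synthesis, 6 were higher and 3 lower (2 in each fit with a library left out). Ptgs2, the inducible cyclooxygenase, measured 141 and 273 CPM in the WT libraries and 27.2 and 14.7 CPM in the CKO libraries, a log2 change of -3.30 ± 0.35 (edgeR adjusted p 0.000189). Ptgs1, the constitutive cyclooxygenase, rose from 32.4 and 34.1 to 55.5 and 55.5 CPM, a log2 rise of 0.74 ± 0.10 (edgeR adjusted p 0.00046). Ptges, the prostaglandin E synthase, rose from 3.35 and 3.35 to 10.9 and 10.5 CPM, and Hpgd, which breaks prostaglandins down, from 1.37 and 1.22 to 12.8 and 10.8. Tbxas1, thromboxane synthase, fell from 318 and 305 to 157 and 138 CPM. Among 14 tested matrix metalloproteinases and inhibitors, 6 were higher (6, 4, 4 and 5 with 1 library left out) and 3 lower (2 in each). Mmp9 rose from 1.49 and 1.3 to 9.18 and 8.4 CPM and Mmp8 from 40.3 and 40.1 to 108 and 108; both are also stored in neutrophil granules. Mmp13, a collagenase, fell from 37.5 and 34.3 to 13.9 and 15.7 CPM, a log2 change of -1.28 ± 0.16 (edgeR adjusted p 0.000227). Of 14 tested fusion and osteoclast genes 6 were higher (5, 4, 2 and 5) and 2 lower (2, 2, 2 and 3). Those that fell were Ocstamp and Atp6v0d2, a proton pump subunit, at 33 and 33.3 CPM in the WT libraries and 7.64 and 6.06 CPM in the CKO libraries. Of 13 tested Src family kinases and partners 4 were higher (3, 2, 1 and 4). Fgr, a myeloid Src kinase, measured 2.28 and 1.91 CPM in the WT libraries and 27.4 and 26 CPM in the CKO libraries, a log2 rise of 3.68 ± 0.15 (edgeR adjusted p 1.03e-07). Of 20 tested apoptosis regulators 5 were higher, none of them in all 4 fits with a library left out (2, 0, 0 and 1), and Tnfrsf10b, the TRAIL receptor, fell from 9.65 and 6.48 to 3.09 and 2.94 CPM.

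Of 26 tested myeloid transcription factors 10 were higher and 4 lower, with 8, 7, 6 and 8 higher and 4, 3, 4 and 2 lower when 1 library was left out. Id3, an inhibitor of basic helix-loop-helix factors, measured 17.1 and 15.1 CPM in the WT libraries and 79.5 and 73.1 CPM in the CKO libraries, a log2 rise of 2.25 ± 0.17 (edgeR adjusted p 5.58e-06). Klf4, a factor of monocyte differentiation, measured 5.05 and 5.47 CPM in the WT libraries and 20.9 and 21.8 CPM in the CKO libraries, a log2 rise of 2.02 ± 0.13 (edgeR adjusted p 1.99e-06). Cebpa, which drives granulocyte and monocyte development, measured 26.4 and 25 CPM in the WT libraries and 84.7 and 73.2 CPM in the CKO libraries, a log2 rise of 1.62 ± 0.16 (edgeR adjusted p 3.97e-05). Each of the 3 was several times higher in both CKO libraries. Egr3, an immediate-early factor, had 190 counts over both WT libraries and 12 over both CKO libraries, a log2 change of -4.01 ± 0.39 (edgeR adjusted p 6.91e-05). Batf3, the partner of IRF8 in type 1 dendritic cells, fell from 4.1 and 5 to 1.2 and 0.818 CPM, a log2 change of -2.17 ± 0.29 (edgeR adjusted p 0.000406). Spi1, which encodes PU.1, rose from 140 and 135 to 190 and 174 CPM, a log2 rise of 0.40 ± 0.089 (edgeR adjusted p 0.00882; 0.148 without CKO library 1).

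Markers of other cells were counted beside these genes. Adgre1, Csf1r and Cd68, which mark macrophages, were present at 600 to 1690 CPM in all 4 libraries. Adgre1, which encodes F4/80, rose from 602 and 600 to 1190 and 1130 CPM. Lyz2 and Mrc1, also in the macrophage marker list, fell as given above. The summed level of that list was 25100 and 24000 CPM in WT and 18600 and 18100 in CKO, a sum that includes Lyz2. Of 14 macrophage markers 5 were higher (4, 4, 3 and 3 with 1 library left out) and 4 lower (3, 2, 2 and 2). Neutrophil primary granule genes were higher in CKO for 5 of 7 tested members, with a summed level of 5.34 and 6.51 CPM in WT and 27.1 and 31.7 in CKO. Mpo, myeloperoxidase, measured 2.28 and 2.59 CPM in the WT libraries and 8.8 and 10.4 CPM in the CKO libraries, a log2 rise of 1.98 ± 0.28 (edgeR adjusted p 0.000546). Late granule and cytosol genes were higher for 13 of 15 tested members and none was lower, 12 of them with any 1 library left out. S100a8 measured 12.1 and 17.2 CPM in the WT libraries and 126 and 135 CPM in the CKO libraries, Ngp 10.4 and 11.4 against 44.3 and 35.1 and Ltf, lactoferrin, 8.2 and 9.46 against 33.9 and 29.5 CPM. Both lists were also higher in CKO without cytokine, in 5 and 13 members, and after IL-4, in 5 and 9. Monocyte markers were higher for 10 of 14 and none was lower, with 8, 8, 7 and 8 when 1 library was left out. Ly6c2, of the Ly6C pair of near-copies, measured 12.8 and 20.7 CPM in the WT libraries and 64.4 and 61.9 CPM in the CKO libraries, and Hp, haptoglobin, 0.248 and 0.756 against 18.3 and 16.2 CPM. Ccr2, the receptor of inflammatory monocytes, did not pass at 75.5 and 101 against 93.2 and 83.5 CPM. The Hp change ranged from 4.52 to 6.10, the larger without WT library 2. Summed monocyte markers were 956 and 969 CPM in WT and 1220 and 1130 in CKO. The part of neutrophils, monocytes or their precursors in the differences above was not tested.

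Type 1 dendritic cell genes were mixed, with 3 of 11 tested members higher (Id2, Cd24a and Tlr3) and 4 lower (Clec9a, Batf3, Naaa and Xcr1). Xcr1, the defining chemokine receptor, was low at 1.99 and 2.05 CPM in WT and 0.978 and 0.706 in CKO, and passed in none of the 4 fits with a library left out. Of 10 type 2 dendritic cell genes 3 were higher (2, 2, 1 and 3) and of 5 plasmacytoid genes 2 were. Markers of T and NK cells were not tested because of low counts, and 11 of the 14, with Cd3e and Trac among them, had no count in the 4 libraries. Of the B cell markers Pax5, Ebf1 and Igkc had no count; among 4 tested, Cd79b was higher (adjusted p 0.0781 or 0.0969 when the first WT or first CKO library was absent) and Ighm lower (adjusted p 0.0987 when WT library 2 was absent, and 0.0669 or 0.104 when the first or second CKO library was). Mast cell, eosinophil, erythroid, stromal and progenitor lists had 1, 1, 0, 0 and 2 members higher and 0, 0, 1, 2 and 0 lower, of 3, 4, 4, 4 and 9 tested. With 1 library left out the lower stromal count became 1, 2, 1 and 0 and the higher progenitor count 1, 2, 1 and 1. The erythroid and megakaryocyte member that fell was Pf4, given among the chemokines.

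The same genotypes were then set side by side without cytokine and after IL-4. In the untreated comparison 2927 genes (18%) passed, 8.6% of those tested being higher and 9.37% lower. After IL-4 482 (2.96%) passed, 1.41% higher and 1.55% lower. Of the genes higher in CKO after IFN-γ, 661 were also higher untreated, which is 39.1% of the IFN-γ set and 47.2% of the untreated set, and 51 were lower there. After IL-4, 175 were also higher, 10.4% of the IFN-γ set and 76.4% of the IL-4 set. Of the lower genes, 552 were also lower untreated (42.3% and 36.2%), 9 were higher there, and 147 were also lower after IL-4 (11.3% and 58.1%). A difference of effects was tested for each gene. On the signed log2 scale, the CKO against WT change after IFN-γ exceeded the untreated change in 337 genes (2.07%). It fell short of the untreated change in 106 (0.651%). Against IL-4 it exceeded in 348 (2.14%) and fell short in 147 (0.902%). Here and below, these words follow the sign and not the size of a change. A gene lower in CKO by more after IFN-γ, such as Ocstamp, counts as falling short. One lower by less, such as C1qb, counts as exceeding. Leaving out 1 IFN-γ library moved the 4 counts to between 104 and 207, 33 and 62, 121 and 197, and 38 and 96. Untreated CKO library 1 stood apart, with 1.52% mitochondrial counts and 1.28% from Gm42418, beside 2.12% to 3.25% and 0.0717% to 1.05% in the other 11 libraries. Without it the counts were 263, 111, 480 and 324, and 1952 genes were higher and 1973 lower after IFN-γ. The differences from untreated of Ocstamp, Myh10, Zyx, Tnik, Mex3b, Ctsc, Clec4e, Pilra, Ednrb, Nr1h3, C1qb, Oasl2, Cd14, Tlr2 and Gbp8, and those from IL-4 of Ednrb, Nr1h3, Cd72 and Chil3, passed with any 1 IFN-γ library left out.

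Several genes were lower in CKO by more after IFN-γ than without it. Ocstamp measured 0.594 and 0.239 CPM in untreated WT and 0.759 and 0.519 in untreated CKO, and 105 and 97.9 against 11.4 and 10.6 after IFN-γ. The difference of log2 changes was -3.80 ± 0.39 (edgeR adjusted p 0.000605). Myh10 measured 4.37 and 4.74 against 3.64 and 5.05 CPM untreated, a log2 difference of -2.96 ± 0.21 (edgeR adjusted p 0.000134). Zyx, which encodes the focal adhesion protein zyxin, measured 50.3 and 50.5 against 49.4 and 55.3 CPM untreated but 493 and 392 against 117 and 83.9 after IFN-γ, a log2 difference of -2.19 ± 0.25 (edgeR adjusted p 0.00111). Tnik was under 1 CPM in every untreated and IL-4 library, and its log2 difference from untreated was -3.06 ± 0.57 (edgeR adjusted p 0.016). In these 4 genes the WT libraries were high after IFN-γ and the CKO libraries were nearer the untreated level. Clec9a had the same order of levels, but was between 0 and 0.304 CPM without IFN-γ, so its fitted differences rest on few counts. Mex3b, an RNA-binding protein, changed sides, at 4.93 and 5.83 against 13.9 and 11.7 CPM untreated and 39.1 and 52.4 against 18.5 and 17.2 after IFN-γ, a log2 difference of -2.60 ± 0.24 (edgeR adjusted p 0.000354). Ctsc did not pass untreated, at 278 and 311 against 306 and 343 CPM, and the difference of its log2 changes was -1.71 ± 0.19 (edgeR adjusted p 0.00104).

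In the other direction, Clec4e measured 55.7 and 60.9 CPM in WT and 31.9 and 33.8 in CKO untreated, and 17.7 and 22.9 against 72.6 and 71.7 after IFN-γ. The order of the genotypes was thus opposite, and the log2 difference was 2.65 ± 0.32 (edgeR adjusted p 0.00182). Pilra overlapped between genotypes untreated, 20.6 and 22.5 against 21.3 and 23.2 CPM, and was lower in WT and higher in CKO after IFN-γ, a log2 difference of 2.60 ± 0.20 (edgeR adjusted p 0.000134). Ednrb was already higher in CKO untreated, 98.8 and 114 against 344 and 279 CPM, and the log2 gap widened by 2.36 ± 0.18 (edgeR adjusted p 0.000134). After IL-4 Ednrb was 248 and 280 against 401 and 419 CPM, so that the WT level was lowest after IFN-γ. The log2 difference from the IL-4 comparison was 3.27 ± 0.18 (edgeR adjusted p 1.02e-05). For Nr1h3 the log2 gap widened by 1.69 ± 0.20 against untreated and 2.25 ± 0.20 against IL-4 (edgeR adjusted p 0.00123 and 0.00024). Cxcl10 was under 1 CPM in every library without IFN-γ, and its log2 difference from untreated was 2.25 ± 0.52 (edgeR adjusted p 0.0453; 0.111 without CKO library 1 and 0.105 without CKO library 2). C1qb, lower in CKO in both, was less so after IFN-γ, with 472 and 503 against 49.5 and 28.3 CPM untreated and a log2 difference of 2.34 ± 0.32 (edgeR adjusted p 0.00356). Cd72, a B cell and myeloid receptor, was lower in CKO after IL-4, 56.3 and 60.8 against 21.3 and 31 CPM, and higher after IFN-γ, 31.9 and 34.3 against 88.9 and 104, a log2 difference of 2.70 ± 0.25 (edgeR adjusted p 0.000266). Chil3, which IL-4 is known to raise, was 754 and 449 against 693 and 571 CPM after IL-4, and its log2 difference was 3.0 ± 0.33 (edgeR adjusted p 0.00121).

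**Figure D5:**
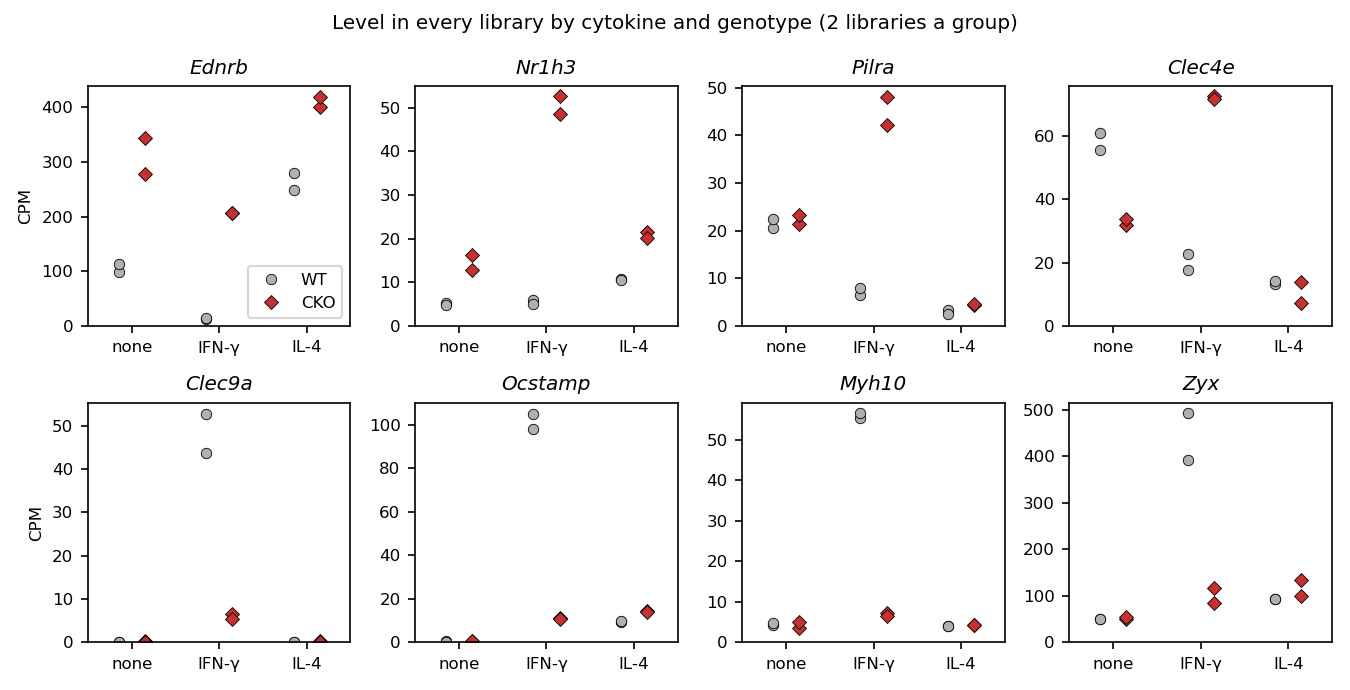
Each panel plots 1 gene's CPM in every untreated, IFN-γ and IL-4 library, with grey circles for the 2 WT and red diamonds for the 2 CKO libraries of a condition. For Clec9a, Ocstamp, Myh10 and Zyx the highest points of the 6 groups are the WT libraries after IFN-γ, while for Ednrb, Nr1h3, Pilra and Clec4e the CKO libraries lie above the WT libraries after IFN-γ.

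By list, 16 of the 52 antiviral genes had a change after IFN-γ that exceeded the untreated change and none fell short, and 9, 9, 7 and 7 did with 1 library left out. Their median was 0.71 after IFN-γ, -0.03 untreated and -0.02 after IL-4. Oasl2 had its genotypes in opposite order, at 8.14 and 6.65 against 5.12 and 4.99 CPM untreated and 86.2 and 94.4 against 289 and 283 after IFN-γ, a log2 difference of 2.21 ± 0.20 (edgeR adjusted p 0.000246). Complement had 6 of 19 genes in that direction (4, 5, 3 and 3 with 1 library left out) and Toll-like receptors 3 of 18 (2 in each), Cd14 and Tlr2 among them. The complement genes included C1qa and C1qb, which were lower in CKO by less after IFN-γ than untreated. The log2 difference was 1.75 ± 0.17 for Cd14 (edgeR adjusted p 0.000392) and 1.61 ± 0.17 for Tlr2 (edgeR adjusted p 0.000759). Of the 14 class I genes none passed this test against untreated and 3 did against IL-4 (0, 1, 0 and 0). Of the guanylate-binding proteins Gbp8 and Gbp9 fell short of their untreated change (2, 1, 1 and 1). Gbp8 was 0.909 and 0.682 in WT and 11.6 and 7.21 CPM in CKO untreated, a log2 difference of -2.61 ± 0.30 (edgeR adjusted p 0.00118). Neither neutrophil list had a member that fell short of its untreated change, and 1 of the 15 late granule members (Padi4) exceeded it (1, 0, 1 and 1 with 1 library left out).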

How the data were processed

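The 12 libraries were prepared with an RNA exome-capture kit, per the labels' protocols, and the authors deposited raw read counts per gene for each. The submitters' processing notes name CASAVA 1.8.2, TopHat2 2.0.13, TopHat, Picard 1.97 and HTSeq 0.6.1, and the builds GRCh38 and mm10, with no role for either. The strand setting and the annotation release: not given in the sources used here.

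Deposited counts were tested with edgeR 4.0.16 (R 4.3.3; limma 3.58.1) by the quasi-likelihood F test, TMM scaling and filterByExpr, with 6 group means over 12 libraries, which leaves 6 residual degrees of freedom. P-values were adjusted by Benjamini-Hochberg over 16292 genes; 22932 of 48440 genes had no count. A call is an adjusted p under 0.05, and the error beside a log2 fold change is an approximate SE taken from the F value. Differences of effects are contrasts in the same fit. The method was tested on simulated data: with 200 of 16292 genes changed in the CKO against WT comparison after IFN-γ, 75% of the 2-fold and 98% of the 4-fold changes were recovered by edgeR, and 21 of its 194 calls were false. That is more false calls than an adjusted p of 0.05 aims for. The simulation gave all groups the same spread for a gene and changed few genes, whereas 18.4% passed in the data. It does not show how the fit behaves with unequal spreads. Members of the comparison, gene lists and rules were chosen with earlier results of these data known. The genes named include the 15 largest increases and 15 largest decreases among called genes with a mean log2 CPM of at least 3. For these, no overlap between genotypes and a symbol other than a clone name were also required. The 8 most positive and 8 most negative in each difference of effects met the same conditions except that on overlap. Up to 4 called members per list, other list members needed to describe a list, and Irf8, Lyz2 and Lyz1 were named too. Positions are from GENCODE M21 (GRCm38), which matched 16218 tested genes. Counting error is small at 24668799 to 28826018 counts, and the number of libraries limits the precision. Alternatives were DESeq2 1.42.0, other scaling, filters, fits, a fold threshold and single libraries left out. A few items of the lists are not reported here.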

Additional observations from a re-analysis of the deposited data

Results flagged for a closer look

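For the genes below the CKO against WT change after IFN-γ differed from the same change in another condition by the test of that difference. Values are differences of log2 fold changes, IFN-γ minus the other condition. Leading genes are those named for the size of their change after IFN-γ or of this difference, and genes named only as members of a list are summarised after them.

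Against untreated cells, 16 leading genes were positive, with edgeR adjusted p from 0.000134 to 0.0453: Clec4e (2.65), Pilra (2.60), Ednrb (2.36), C1qb (2.34), Marcksl1 (2.34), Gpr84 (2.31), Cysltr2 (2.26), Cxcl10 (2.25), Ddx60 (2.12), Sgms2 (2.06), C1qa (1.91), Cd72 (1.83), Nr1h3 (1.69), Tspan13 (1.68), C3 (1.48) and Ms4a6b (1.21). Sgms2, a sphingomyelin synthase, measured 22.2 and 20 CPM in WT and 30.3 and 30.7 in CKO untreated, and 5.14 and 5.11 against 33.9 and 28.1 after IFN-γ. Gpr84, a receptor for medium-chain fatty acids, measured 4.65 and 6.24 against 3.11 and 5.39 CPM untreated, and 5.96 and 7.56 against 26.1 and 27 after IFN-γ. Marcksl1, a protein that binds actin and calmodulin, measured 40.9 and 53.6 against 21.1 and 33.8 CPM untreated, and 28 and 35.9 against 103 and 85.7 after IFN-γ. Negative against untreated cells were 10 leading genes, with edgeR adjusted p from 0.000134 to 0.016: Clec9a (-4.48), Ocstamp (-3.80), Tnik (-3.06), Abca9 (-3.04), Pdgfc (-3.03), Myh10 (-2.96), Gbp8 (-2.61), Mex3b (-2.60), Zyx (-2.19) and Itga1 (-2.15). Abca9 was higher in CKO in both conditions, at 1.19 and 1.36 against 89.3 and 57.1 CPM untreated and 4.35 and 4.46 against 32.8 and 28.5 after IFN-γ. Pdgfc, a platelet-derived growth factor, measured 1.54 and 1.02 against 14.9 and 8.36 CPM untreated, and 8.24 and 7.38 against 9.48 and 7.77 after IFN-γ. Itga1, the α1 integrin chain that binds collagen, measured 3.6 and 2.73 against 5.46 and 4.35 CPM untreated, and 20.2 and 21.6 against 7.9 and 6.65 after IFN-γ.

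Against cells with IL-4, 14 leading genes were positive, with edgeR adjusted p from 1.02e-05 to 0.0457: Ednrb (3.27), Chil3 (3.0), Cd72 (2.70), Ddx60 (2.68), Tspan13 (2.61), Pla2r1 (2.42), Nr1h3 (2.25), Sgms2 (2.21), Clec4e (2.21), Pilra (2.02), Cysltr2 (1.72), Ms4a6b (1.62), Gngt2 (1.52) and C3 (1.5). Tspan13, a tetraspanin, measured 5.31 and 5 against 4.23 and 2.34 CPM after IL-4, and 4.02 and 4.25 against 14.9 and 17 after IFN-γ. Negative were 12 leading genes, with edgeR adjusted p from 1.68e-05 to 0.03: Clec9a (-5.61), Ocstamp (-3.75), Myh10 (-3.08), Zyx (-2.48), Tlr9 (-2.28), Itga1 (-2.06), Atp6v0d2 (-2.05), Ppargc1b (-1.99), Pdgfc (-1.83), Mex3b (-1.76), Abca9 (-1.75) and Igf2bp3 (-1.23). Ppargc1b, a coactivator of mitochondrial genes, measured 7.48 and 6.65 against 13 and 8.5 CPM after IL-4, and 15 and 14.1 against 5.53 and 5.61 after IFN-γ.

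Of the genes named only as list members, 31 were positive and 8 negative against untreated, and 36 were positive and 14 negative against IL-4, each by an edgeR adjusted p under 0.05. Cx3cr1 had the largest positive difference among these list members in both, 2.69 (edgeR adjusted p 0.00676) and 4.76 (edgeR adjusted p 0.00252). The largest negative difference was that of Egr3 against untreated (-4.14, edgeR adjusted p 0.0395) and of Pdcd1lg2 against IL-4 (-3.61, edgeR adjusted p 0.00805).

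With 1 of the 4 IFN-γ libraries left out at a time, the test against untreated was passed in no fit by C1qa, Cysltr2, Ddx60 and Gpr84, in 2 fits by Cxcl10 and Ms4a6b, and in 3 by Marcksl1 and Tspan13. The test against IL-4 was passed in no fit by Abca9, Atp6v0d2, Cysltr2, Ddx60 and Pdgfc, in 1 by Ppargc1b, in 2 by Gngt2 and Igf2bp3, and in 3 by Tlr9. The other leading genes passed in all 4. Of the list members, 16 positive and 3 negative against untreated and 13 positive and 6 negative against IL-4 passed in all 4, with Cx3cr1 among them in both, while Egr3 passed in no fit and Pdcd1lg2 in 2.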

How the results depend on the processing

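The direction of 186 of 187 named genes after IFN-γ was the same under every alternative run. Of the 187, 186 had passed in the main fit, and the leading changes were also picked for genotypes that did not overlap. A kept direction was thus largely set by the choice of genes. The exception was Pdgfc, which had no call and whose log2 fold change of 0.14 became -0.027 without CKO library 1 (the cause was not tested) and 0.296 without CKO library 2. In all, 116 of the 187 kept their side of the threshold under every alternative. DESeq2 ended the call of 4 genes, and leaving out WT library 1, WT library 2, CKO library 1 or CKO library 2 ended 18, 18, 30 and 22.

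Counts of called genes moved more. The first 2 of 6 counts are the genes higher (1690) and lower (1305) in CKO after IFN-γ. The next 2 are those whose signed change exceeded (337) or fell short of (106) the untreated change. The last 2 are those whose signed change exceeded (348) or fell short of (147) the change after IL-4. A fold of at least 2, which keeps fewer genes by construction, gave 610, 422, 198 and 67 for the first 4 and 203 for the fifth. DESeq2 gave 184 genes for the fourth count and 236 for the sixth. Without a filter on low counts the last 4 were 704, 315, 688 and 532. When the fit held the compared groups alone, the third was 222 and the sixth 236. Leaving out 1 IFN-γ library gave 721 to 1159, 488 to 766, 104 to 207, 33 to 62, 121 to 197 and 38 to 96, from fewer libraries, the remaining one being assumed to vary like the other groups. Leaving out untreated CKO library 1, chosen after seeing the data, gave 1973 for the second count and 324 for the sixth. Where no cause is stated it was not tested.

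With the library number as a replicate block over all groups, the last 4 counts became 519, 213, 572 and 279. With a block within each genotype the second to sixth were 2233, 755, 325, 789 and 465. Deviations of same-numbered WT and CKO libraries after IFN-γ had a correlation of 0.0512 across genes. Same-numbered libraries within a genotype correlated at 0.431 (untreated and IFN-γ), 0.135 (untreated and IL-4) and 0.1 (IFN-γ and IL-4) in WT and at 0.163, 0.381 and 0.218 in CKO, and untreated WT and CKO libraries at 0.256. With 2 numbers and no label for what they share, the libraries were not treated as pairs, and the counts of differences of effects depend on that choice.

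With 2 libraries per group no spread within a group is well known, and a gene that did not pass is not shown to be equal between genotypes. The groups that share the pooled spread varied unequally. Chi-square of counts per degree of freedom between the 2 libraries of a group was 5.207 for CKO and 41.89 for WT after IFN-γ. It was 90.55 for untreated CKO. Changes near 2-fold can be missed at this size. Counts per gene were used as deposited, so reads shared by close copies cannot be divided here. Capture probes set which genes are measurable, and levels of different genes were not compared.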

Other observations

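Genes known to differ between mouse substrains were read beside the comparison. Of 7 tested, 2 were higher in CKO, 1 was lower and 4 did not pass. Glo1, glyoxalase of methylglyoxal breakdown, measured 70.6 and 71.1 CPM in the WT libraries and 27.1 and 28.9 CPM in the CKO libraries, a log2 change of -1.34 ± 0.094 (edgeR adjusted p 4.18e-06). Wdfy1, an endosomal protein, measured 24.6 and 20.4 CPM in the WT libraries and 64.9 and 62 CPM in the CKO libraries, a log2 rise of 1.49 ± 0.11 (edgeR adjusted p 4.99e-06). Nnt, the mitochondrial transhydrogenase, measured 38.4 and 36.1 CPM in the WT libraries and 52.1 and 51.6 CPM in the CKO libraries, a log2 rise of 0.48 ± 0.087 (edgeR adjusted p 0.00275). The labels give no strain, and the log2 changes of Glo1 and Wdfy1 were -1.23 and 1.63 in untreated libraries and -1.25 and 1.8 after IL-4. The rise of Nnt was smaller after IFN-γ than untreated, with a log2 difference of -0.57 (edgeR adjusted p 0.0288). That difference passed in none of the fits with 1 IFN-γ library left out, where it lay between -0.52 and -0.62. Whether strain has a part in these changes was not tested.

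Counts by chromosome were uneven. On chromosome 17, which carries the class I and class II genes, 16.1% of tested genes were higher in CKO and 4.37% lower, and on chromosome 19 15.4% were higher, beside 10.4% and 8.01% of all tested genes. Of the nearest well-expressed neighbours of Irf8, chosen as for Lyz2, Gse1 passed, with a log2 fold change of 0.48 (edgeR adjusted p 0.0352).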
